A study of Bos taurus and Felis catus with 14 samples.

Results

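The mir-2284 and mir-2285 family is a large group of microRNA hairpins found in cattle and other ruminants. Its members here are the bovine precursor loci whose predicted name holds mir-2284 or mir-2285, with any letter, copy number or homology suffix, and without the loci named as antisense to a member. The rule found 93 members among 810 bovine loci (11.5%), 33 named mir-2284 and 60 named mir-2285. No locus among 495 feline loci carried either name. The rule used names only. Homologous members had been named for the likeness of their mature products to a known family. Through the name their products, and possibly the product lengths, bear on the choice. Predictions had been matched to known annotations by overlap of the predicted span on the same strand. For annotated members, position and span therefore also bear on the name.

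A microRNA is cut from a hairpin-shaped precursor, in which a 5′ arm and a 3′ arm pair with each other and are joined by a loop. Drosha frees the precursor from its primary transcript and Dicer removes the loop, which leaves a duplex with a product from each arm (5p and 3p). One strand of the duplex usually stays in an Argonaute protein, where its seed guides it to target messages, and the other strand is often scarce or not seen in sequencing.

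Small RNA of 10 bovine tissues from 3 Angus steers and of feline skin and muscle had been sequenced, and precursors had been called by miRWoods, a stacked random forest predictor. The bovine tissues (1 library each) were retina, iris and optic nerve, brain stem, submandibular lymph node and bone marrow, dental pulp and oral papillae, corium, and penis. Of these libraries, 8 came from steer 1 and 1 each from the other two animals, which gave brain stem and corium. The 10 bovine libraries fed 1 call set, which gives the span and strand of each precursor and of each mature product but no read number, so from this set no member can be assigned to a tissue, there is no replicate, and the depth behind a member is unknown. Read counts from a supplementary table of the study, at hand only in shortened form, were not used here. Intervals below are 95% exact (Clopper-Pearson) binomial intervals that cover counting error only, and members are copies that may share reads, so they are not independent of each other.

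The family was made mostly of loci without a miRBase name in the call set. A locus with a miRBase name was counted as annotated, and a locus with a family name and a homology suffix was counted as homologous. There were 25 annotated members (10 mir-2284 and 15 mir-2285) and 68 homologous members (23 and 45). The annotated mir-2284 loci carried 9 letters, of which only y came with more than 1 copy (bta-mir-2284y-2 and bta-mir-2284y-4). Among the annotated mir-2285 loci, the letters b, k and o each had 2 copies and the remaining letters 1.

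The members were spread over nearly the whole genome. They lay on 28 of the 30 chromosomes in the call set, with none on chromosomes 18 and 23, and the median chromosome held 2.5 members. Chromosome 8 held 10 members, chromosome 13 held 9, and chromosomes 1 and 10 held 7 each. Both names occurred on 15 chromosomes, mir-2284 alone on 5 and mir-2285 alone on 8. As a share of all loci of the chromosome, the family took 30% on chromosome 13, 27.3% on chromosome 14, 27% on chromosome 8 and 26.9% on chromosome 10, against 1.52% on chromosome 21 and 1.61% on X. Chromosomes 21 and X each had over 60 loci (66 and 62), of which 1 was a member, bta-mir-2285-Novel39 on chromosome 21 and bta-mir-2284w on X. These counts are of called loci. In a RefSeq gene table, described below, genes named MIR2284 or MIR2285 lay on all 30 chromosomes. It lists 4 on chromosome 18, 3 on chromosome 23, 5 on chromosome 21 and 11 on X.

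**Figure D1:**
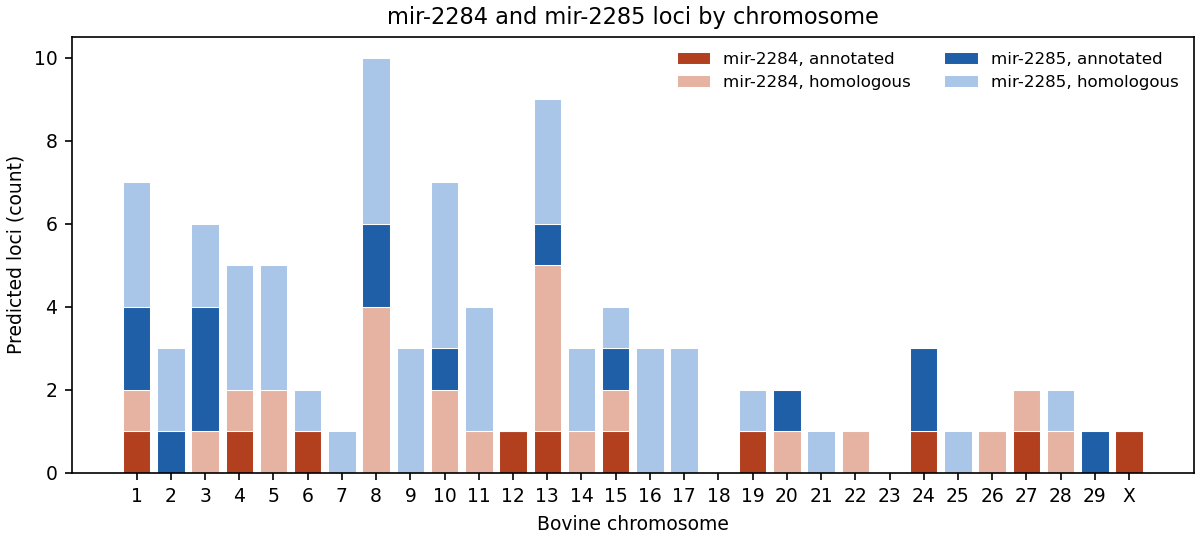
Number of predicted loci (vertical axis) named mir-2284 (red) or mir-2285 (blue) on each bovine chromosome (horizontal axis), with annotated loci dark and homologous loci light. Chromosomes 8 and 13 stand highest with 10 and 9 loci, and chromosomes 18 and 23 have none.

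The members divided evenly between the strands of the assembly, 47 on the plus strand and 46 on the minus strand. Of the mir-2284 loci 12 of 33 were on the plus strand (36.4%, interval 20.4 to 54.9%), and of the mir-2285 loci 35 of 60 (58.3%, interval 44.9 to 70.9%). The intervals of the 2 names overlap, and the difference was not tested. On chromosome 8, which was picked after the strands were seen, the 6 mir-2285 loci were all on the plus strand and the 4 mir-2284 loci all on the minus strand. On chromosome 13 the 5 mir-2284 loci were 1 plus and 4 minus, and the 4 mir-2285 loci were 2 plus and 2 minus, so the separation by strand on chromosome 8 did not recur there.

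The arms with a product differed by name over all members. A 5p product was present at 32 of 33 mir-2284 loci (97%, interval 84.2 to 99.9%) but at 22 of 60 mir-2285 loci (36.7%, interval 24.6 to 50.1%). A 3p product was present at 60 of 60 mir-2285 loci (interval 94 to 100%) and at 17 of 33 mir-2284 loci (51.5%, interval 33.5 to 69.2%). In consequence, each of the 16 members with a 5p product alone was a mir-2284 locus, and 38 of the 39 members with a 3p product alone were mir-2285 loci. The exception was bta-mir-2284s on chromosome 12 (53250956 to 53251019, plus strand), a 64 nt precursor whose only product was a 22 nt 3p at bases 42 to 63.

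The name and the arm are not independent for the homologous members, since their names came from a match of the mature product. The annotated members had their miRBase names already, and how those names relate to the arm of the product was not examined. Among them a 5p product was present at 9 of 10 mir-2284 loci (90%, interval 55.5 to 99.7%) and 8 of 15 mir-2285 loci (53.3%, interval 26.6 to 78.7%). A 3p product was present at 6 of 10 (60%, interval 26.2 to 87.8%) and 15 of 15 (interval 78.2 to 100%). Both pairs of intervals overlap among the annotated members, and the difference in arms was not tested. No annotated or homologous mir-2285 locus had a 5p product alone.

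Fewer members had products from both arms than loci of other families did. Both a 5p and a 3p product were predicted at 38 of 93 members (40.9%, interval 30.8 to 51.5%) and at 371 of the 409 annotated and homologous loci of other names (90.7%, interval 87.5 to 93.3%), a difference of -49.8 percentage points (interval -59.6 to -39.2, two-sided Fisher's exact test, p = 2.27e-23 after adjustment over 3 tests). Among annotated loci alone the shares were 13 of 25 (52%) and 360 of 387 (93%), a difference of -41 points with an adjusted p of 3.08e-07 in the exact test. Among homologous loci alone the shares were 25 of 68 (36.8%) and 11 of 22 (50%), a difference of -13.2 points that did not pass the exact test (adjusted p = 0.321). The classes weigh differently in the sets compared, since 68 of 93 members and 22 of 409 other loci were homologous. Of the 283 loci without known homology, 159 had both arms (56.2%, interval 50.2 to 62%). The p-values describe this list of loci and not variation between animals.

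Between the names, both arms were predicted at 16 of 33 mir-2284 loci (48.5%, interval 30.8 to 66.5%) and 22 of 60 mir-2285 loci (36.7%, interval 24.6 to 50.1%). The difference of 11.8 points had an interval from -8.56 to 31.5 and was not past the threshold of 0.05 (adjusted p = 0.28 in the two-sided exact test of Fisher). Among the annotated loci its direction turned, with 5 of 10 mir-2284 and 8 of 15 mir-2285 loci (-3.33 points, exact p = 1).

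**Figure D2:**
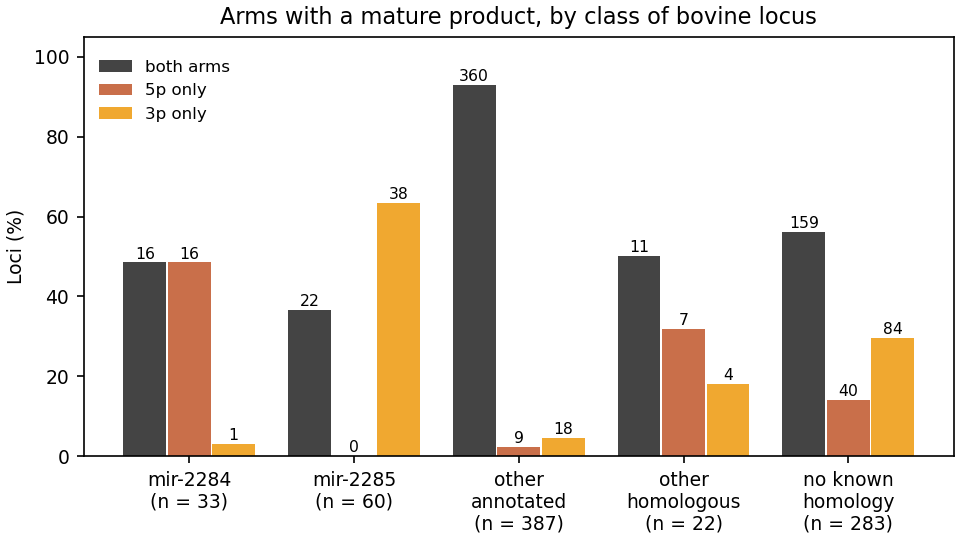
Percentage of loci (vertical axis) with a product from both arms (dark), the 5p arm alone (brown) or the 3p arm alone (yellow) in each class of bovine locus (horizontal axis), with the number of loci above each bar. The mir-2284 loci divide between both arms (16) and 5p alone (16), the mir-2285 loci between both arms (22) and 3p alone (38), and 360 of 387 other annotated loci have both.

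Precursors of the family were of ordinary length for this call set. The median was 66 nt (range 51 to 101, interquartile range 64 to 68), with 64 nt for mir-2284 and 66 nt for mir-2285, against 65 nt for the other annotated loci and 66 nt for all 810 bovine loci. Of the members, 68 were 60 to 70 nt long (73.1%, interval 62.9 to 81.8%), and 64 nt (16 loci) and 66 nt (15 loci) were the most frequent lengths. Among other annotated loci 265 of 387 lay between 60 and 70 nt (68.5%, interval 63.6 to 73.1%).

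The lengths of the predicted spans fell into a short and a long class with a gap between them. The short class held 79 members of 51 to 76 nt and the long class 14 members of 86 to 101 nt, so no member measured 77 to 85 nt. The long class made up 8 of 25 annotated members (32%, interval 14.9 to 53.5%) and 6 of 68 homologous members (8.82%, interval 3.31 to 18.2%). Its share was nearly the same for the names, 5 of 33 mir-2284 loci (15.2%) and 9 of 60 mir-2285 loci (15%). Among other annotated loci 76 of 387 were over 80 nt long (19.6%, interval 15.8 to 24%).

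The shortest precursor was bta-mir-2284x on chromosome 1 (3607772 to 3607822, minus strand), with 51 nt and a 22 nt 5p product at its first base. The next were bta-mir-2285-Novel34 with 56 nt and, at 58 nt, bta-mir-2284-Novel9, bta-mir-2285-Novel10 and bta-mir-2285-Novel9. The longest was bta-mir-2284t on chromosome 15 (39162232 to 39162332, minus strand), with 101 nt, followed by bta-mir-2285b-1, bta-mir-2284-Novel24 and bta-mir-2285-Novel5 with 100 nt each. The extremes thus held both names and both classes.

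The extra length of the long class lay outside the products. In the 7 long members with both arms, 20 to 22 nt preceded the 5p product and 15 to 19 nt followed the 3p product, while the stretch from the first base of the 5p to the last base of the 3p had a median of 60 nt (57 to 63). In the 31 short members with both arms that stretch had a median of 59 nt (54 to 68). The loop had a median of 16 nt in both classes. The 7 long members were bta-mir-2284t, bta-mir-2284w, bta-mir-2284-Novel18, bta-mir-2284-Novel20, bta-mir-2285b-1, bta-mir-2285t and bta-mir-2285-Novel16. Among other annotated loci over 80 nt with both arms, 50 of 73 had 15 to 24 nt outside each product (68.5%, interval 56.6 to 78.9%), so the long form with flanks was not particular to the family.

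In most precursors with a product on 1 arm, the product lay at or near an end of the span. Of the 39 members with a 3p product alone, 32 had exactly 1 nt after the product (82.1%, interval 66.5 to 92.5%), and a median of 43 nt (35 to 61) preceded it. The remaining ones had 2 to 19 nt after it, as in the long precursors of bta-mir-2285k-5 (17 nt) and bta-mir-2285-Novel14 (19 nt). The median after a lone 3p product was also 1 nt in other annotated loci (18 loci) and in loci without known homology (84 loci). Of the 16 members with a 5p product alone, 11 began with the first base of the product (68.8%, interval 41.3 to 89%), and a median of 40 nt (29 to 75) followed it. The largest overhang belonged to bta-mir-2284-Novel24 on chromosome 20, whose 5p product began at base 4 of a 100 nt span and left 75 nt after it. Candidate spans had been built by pairing the main product with its flanking sequence, stretching the result to the ends of products and adding 2 nt. Other candidates ran from the main product to another product, and the span with the best score was kept. These ends therefore describe the procedure as well as the hairpin.

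**Figure D3:**
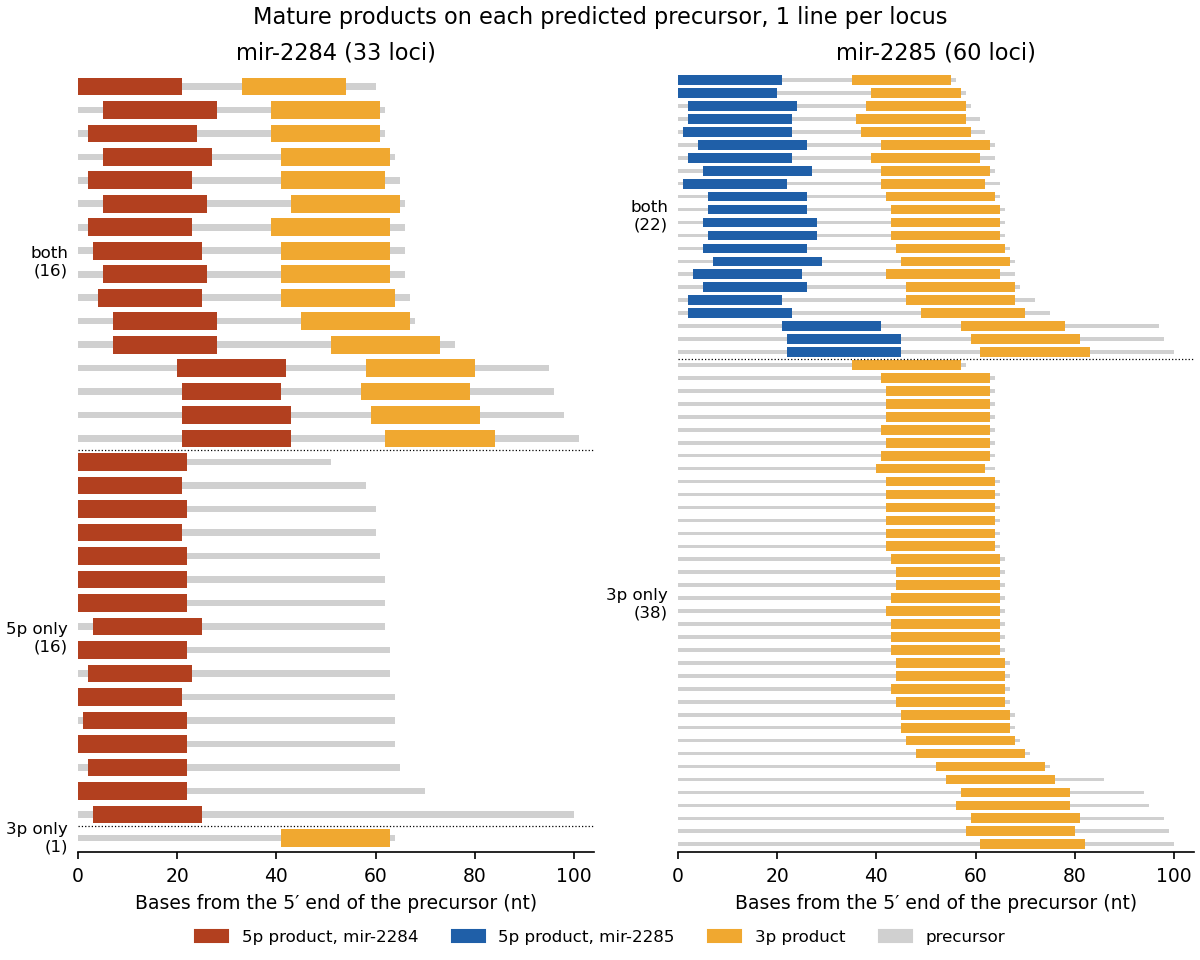
Each line is 1 predicted precursor of mir-2284 (left, 33 loci) or mir-2285 (right, 60 loci), drawn in grey from its 5′ end, with the 5p product in red or blue and the 3p product in yellow (horizontal axis in nt). Loci are ordered by the arms with a product and then by length, and the 14 precursors of 86 to 101 nt stand apart at the foot of each block.

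The mature products had the lengths typical of Dicer products. Of the 54 5p products of the family, 23 were 22 nt (42.6%, interval 29.2 to 56.8%) and 20 were 21 nt (37%, interval 24.3 to 51.3%). Of the 77 3p products, 56 were 22 nt (72.7%, interval 61.4 to 82.3%) and 12 were 21 nt. The share of 22 nt among 3p products was 13 of 17 for mir-2284 (76.5%, interval 50.1 to 93.2%) and 43 of 60 for mir-2285 (71.7%, interval 58.6 to 82.5%), with overlapping intervals. Other annotated loci had 22 nt in 198 of 378 3p products (52.4%, interval 47.2 to 57.5%) and 174 of 369 5p products (47.2%, interval 42 to 52.4%), and 21 nt in 64 of 369 5p products (17.3%, interval 13.6 to 21.6%). The share of 22 nt 3p products was larger in the family than in other annotated loci, with intervals that do not overlap, and among annotated members alone it was 19 of 21 (90.5%, interval 69.6 to 98.8%). The larger share of 21 nt 5p products came from the homologous members, with 18 of 37 (48.6%, interval 31.9 to 65.6%), while annotated members had 2 of 17 (11.8%, interval 1.46 to 36.4%). Homologous loci of other names had 6 of 18 (33.3%, interval 13.3 to 59%). For 22 nt 3p products, homologous members had 37 of 56 (66.1%, interval 52.2 to 78.2%) and homologous loci of other names 7 of 15 (46.7%, interval 21.3 to 73.4%). Within the homologous class both pairs of intervals overlap. These lengths were picked after their values were seen and the differences were not tested. Product length may also bear on the names of the homologous members, which came from a match of the mature product.

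Lengths outside 20 to 24 nt were rare in the family. The exceptions were the 5p product of bta-mir-2285i with 19 nt and the 3p product of bta-mir-2285-Novel10 with 18 nt. At the upper end, the 3p product of bta-mir-2284-Novel7 reached 24 nt and every remaining product had at most 23 nt.

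The loop, taken as the bases between the 5p and the 3p product, could be measured at the 38 members with both arms. Its median was 16 nt (range 11 to 26, interquartile range 15 to 17), and 16 nt was the most frequent value (11 loci). Loops of 14 to 17 nt were found at 26 of 38 members (68.4%, interval 51.3 to 82.5%), against 189 of 360 other annotated loci (52.5%, interval 47.2 to 57.8%) and 57 of 159 loci without known homology (35.8%, interval 28.4 to 43.8%). The family and the other annotated loci have overlapping intervals here. The median loop was 16 nt for mir-2284 (16 loci, 11 to 23) and for mir-2285 (22 loci, 13 to 26), and it was also 16 nt for the 360 other annotated loci, whose range was 9 to 54 nt.

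A few members stood at the ends of the loop range. The shortest loops were those of bta-mir-2284-Novel13 (11 nt), bta-mir-2284-Novel23 (12 nt) and bta-mir-2285-Novel18 (13 nt). The longest were those of bta-mir-2285-Novel40 (26 nt), bta-mir-2285i (25 nt) and bta-mir-2284-Novel26 (23 nt). In bta-mir-2285i the long loop adjoined the short 19 nt 5p product, and its precursor was 72 nt long. From the first base of the 5p product to the first base of the 3p product the members had a median of 37 nt (33 to 47), and other annotated loci 38 nt (30 to 76).

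Predicted members were far apart from each other, and copies that were not called do not enter the gaps. The RefSeq table lists 191 genes of these names, of which 166 were not among the 25 annotated members. Homologous members were not compared with these genes. The 65 pairs of members that follow each other on a chromosome were separated by a median of 12.2 Mb (interquartile range 3.54 to 23.5 Mb, largest 77.3 Mb), and 8 members were alone on their chromosome. Only 5 pairs were within 1 Mb and 10 within 2 Mb. For the 85 members with another on the same chromosome, the nearest one was a median of 8.74 Mb away. Neighbours were on the same strand in 41 pairs and on opposite strands in 24, and they had the same name in 37 pairs. How many such pairs the numbers of members by strand and name alone would give was not worked out.

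The closest pair consisted of overlapping hairpins on opposite strands. The 69 nt precursor of bta-mir-2285o-3 (chromosome 24, 33897670 to 33897738, plus strand) shared 60 nt with the 60 nt precursor of bta-mir-2284y-4 (33897674 to 33897733, minus strand), which lay wholly within it. The only product of the first was a 22 nt 3p at 33897716 to 33897737 and the only product of the second a 21 nt 5p at 33897713 to 33897733, so the products covered 18 nt of the same stretch in opposite sense. Each member gave the arm that is usual for its name.

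The next pairs lay much farther apart. On chromosome 15, bta-mir-2284t and bta-mir-2285b-1, both of the long class and both with products on both arms, were 433761 nt apart on the minus strand. On chromosome 13, bta-mir-2284y-2 lay between bta-mir-2284-Novel18 at 637170 nt and bta-mir-2284-Novel17 at 480854 nt, all 3 on the minus strand within 1.12 Mb that held no other locus. On chromosome 10, bta-mir-2285-Novel32 and bta-mir-2285-Novel46 were 668155 nt apart on the plus strand, and on chromosome 3 bta-mir-2285b-2 and bta-mir-2285k-5 were 1039378 nt apart on the minus strand. These and the next pair, bta-mir-2285-Novel31 and bta-mir-2285-Novel30 on chromosome 10 at 1305193 nt, were all on the same strand. The pair after them, bta-mir-2285-Novel3 and bta-mir-2284-Novel6 on chromosome 8 at 1465519 nt, was on opposite strands.

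Members were seldom near any other locus. With clusters taken as groups of at least 2 loci separated by at most 10 kb on either strand, as in the methods of the study, 4 of 93 members were in a cluster (4.3%, interval 1.18 to 10.6%), against 185 of 387 other annotated loci (47.8%, interval 42.7 to 52.9%). The difference was -43.5 percentage points (interval -49.1 to -35.5, two-sided Fisher's exact test, p = 3.55e-17 after adjustment over 3 tests). Within the annotated class the shares were 4 of 25 (16%, interval 4.54 to 36.1%) and 185 of 387, a difference of -31.8 points (exact test, adjusted p = 0.00255). Within the homologous class they were 0 of 68 (interval 0 to 5.28%) and 3 of 22 (13.6%, interval 2.91 to 34.9%), a difference of -13.6 points (exact test, adjusted p = 0.0197). These splits by class were chosen after seeing the data. Of the loci without known homology, 25 of 283 were (8.83%, interval 5.8 to 12.8%).

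The 4 clustered members came from 3 places, and each was there through a hairpin on the opposite strand, which overlapped the member in 3 cases. Besides the pair on chromosome 24, bta-mir-2285e-1 on chromosome 1 (158102075 to 158102138, plus strand) shared 62 nt with a locus named as its antisense. The remaining one was bta-mir-2285q on chromosome 20 (13408705 to 13408799, minus strand), 6861 nt from bta-Novel40, a locus without known homology on the plus strand. When only loci on the same strand counted, 0 of 93 members and 170 of 387 other annotated loci (43.9%) were in a cluster, and the difference was -43.9 points (exact test, adjusted p = 1.22e-20).

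The same pattern held at wider distances. The nearest locus of any name was a median of 1.47 Mb from a member, 20.8 kb from another annotated locus and 509 kb from a locus without known homology. A neighbour within 1 Mb was found for 33 members (35.5%) and for 299 other annotated loci (77.3%). A neighbour within 100000 nt was found for 7 members (7.53%) and for 222 other annotated loci (57.4%).

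**Figure D4:**
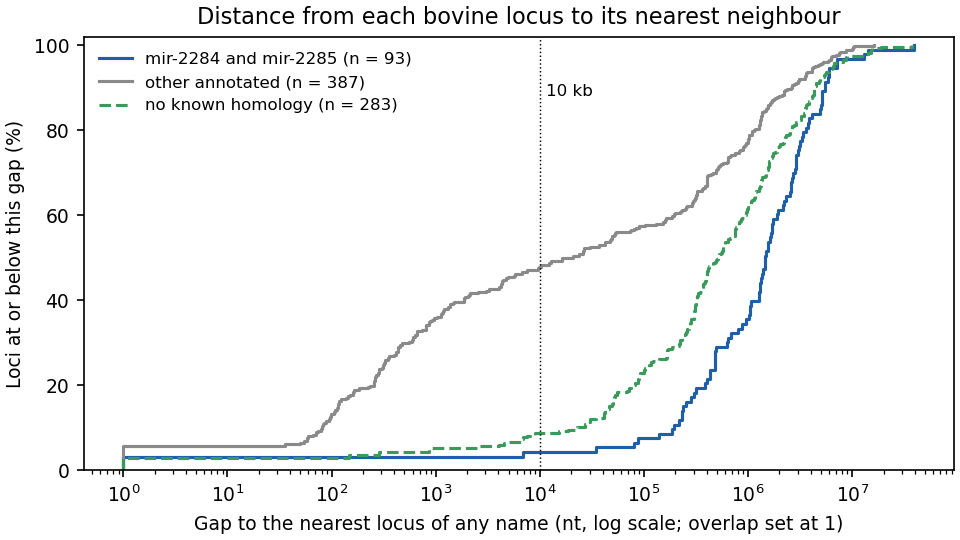
Percentage of loci (vertical axis) whose nearest locus of any name lies at or below a given gap (horizontal axis, nt, log scale, with overlapping loci set at 1), for the family (blue), other annotated loci (grey) and loci without known homology (green, dashed). At 10 kb (dotted line) the family stands at 4.3% and the other annotated loci at 47.8%.

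Names of genes around the annotated members were taken from a RefSeq gene table of the assembly ARS-UCD2.0, which may not be the build of the call set, so none of its positions is given. All 25 annotated members matched a RefSeq microRNA gene by name, each on the chromosome of the call set. The predicted precursor was shorter than the RefSeq one at 13 members, longer at 10 and equal at 2 (bta-mir-2284w and bta-mir-2285e-1), with a median difference of -1 nt. The shortest prediction, bta-mir-2284x, was 45 nt short of its 96 nt RefSeq gene. The largest excess, 28 nt, was found at the long precursors of bta-mir-2284t and bta-mir-2285b-1. Annotated members of the long class had RefSeq lengths of 61 to 96 nt, and those of the short class 57 to 96 nt. The short and long classes are thus classes of predicted spans, and the RefSeq lengths did not divide by them.

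Most annotated members had their RefSeq gene within the span of a protein-coding gene, 20 of 25 (80%, interval 59.3 to 93.2%). For all 191 RefSeq genes named MIR2284 or MIR2285 the share was 125 (65.4%, interval 58.2 to 72.2%), and for 384 other annotated loci of the call set with a RefSeq gene it was 224 (58.3%, interval 53.2 to 63.3%). The intervals overlap, and the difference was not tested. The table gives no strand, and exons and introns were not looked up.

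The host genes, meaning genes whose span holds the RefSeq microRNA gene on either strand, were 19. RBBP8, which encodes the DNA end resection factor CtIP, holds both bta-mir-2285o-3 and bta-mir-2284y-4, the overlapping pair. In the call set these lie on opposite strands, so they cannot both be on the strand of RBBP8. Further hosts were TIAM1 (bta-mir-2284x), DOCK11 (bta-mir-2284w) and DOCK5 (bta-mir-2285ae). Genes of transcription and RNA processing were AFF1, a scaffold of transcription elongation (bta-mir-2284ab), ERCC3, a DNA helicase of TFIIH (bta-mir-2285aa), PKNOX2, a homeodomain factor (bta-mir-2285r), and SREK1, a splicing regulator (bta-mir-2285q). Channels, receptors and cell surface proteins were KCNH8, a potassium channel (bta-mir-2285e-1), LRRC8D, a subunit of volume-regulated anion channels (bta-mir-2285k-5), FCGR2B, an inhibitory receptor for IgG (bta-mir-2285t), PTPRM, a receptor tyrosine phosphatase (bta-mir-2285o-4), and CDHR3, a cadherin-related protein (bta-mir-2284b). The remaining hosts were PIK3R5, a regulatory subunit of a PI3 kinase (bta-mir-2284aa-3), MTUS1, a microtubule-associated protein (bta-mir-2284ac), SPON1, a secreted matrix protein (bta-mir-2284t), FAR1, a fatty acyl-CoA reductase (bta-mir-2285b-1), MPP7, a scaffold of cell junctions (bta-mir-2285p), and AP3B1, a subunit of the AP-3 adaptor (bta-mir-2285v). For bta-mir-2284s, bta-mir-2284y-2, bta-mir-2285b-2, bta-mir-2285i and bta-mir-2285k-3 no protein-coding gene held the RefSeq gene. No group of hosts was tested for enrichment.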

How the data were processed

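Reads from the 14 small RNA libraries had been trimmed with cutadapt 1.15 and aligned with Bowtie 1.2.11, with reads of many genomic matches left out, per the labels and the study's methods. The deposited sets give precursor and product positions (start and end, counted from 1) of 1 miRWoods run per species on all libraries of that species. Homologous names came from BLAST of mature products against known families, and the authors had relaxed the seed requirement for this family. The genome build of the call set is not given in sources used here. No scores or read numbers come with a locus.

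Members were found by name. Product positions were counted from the precursor's 5′ end on its own strand, and gaps were taken between spans. Shares carry exact binomial intervals and differences of shares score (Newcombe) intervals. Fisher's exact test, two-sided, was used for 3 comparisons, with Benjamini-Hochberg adjustment over the 3. Lengths, loops and spacing were described without a test. Loci were named by rule: every annotated member, the 5 closest pairs, members in a cluster, the 3 shortest and longest precursors and loops, and products outside 20 to 24 nt. Members, lists and tests were chosen with earlier results of these data known. Alternatives varied the cluster distance, strand, class of locus and statistic. Geometry and clustering were tested on 50 simulated sets of 300 loci and recovered in all 50. Python 3.11.15, numpy 2.4.6, scipy 1.17.1 and matplotlib 3.10.9 were used. Mature sequences, seeds and folding were not analysed here.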

Additional observations from a re-analysis of the deposited data

Results flagged for a closer look

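Outside the comparisons, 4 bovine loci were named as antisense to a mir-2284 or mir-2285 member, and they were singled out because they are predicted hairpins that are not counted as members. In the comparison of clusters they served only as possible neighbours, and 1 of them is the neighbour of bta-mir-2285e-1. Their precursors were 62 to 64 nt long, 2 had both arms and 2 had a 3p product alone. The locus antisense to bta-mir-2285e-1 (chromosome 1, 158102077 to 158102140, minus strand) was the only one that overlapped a member, and its 21 nt 3p product shared 19 nt with the 5p product of that member in opposite sense. The loci antisense to mir-2284y-3 (chromosome 1, 83105406 to 83105469, plus strand, loop of 17 nt) and mir-2285o-1 (chromosome 12, 16533031 to 16533094, plus strand, loop of 14 nt) had both arms, and the locus antisense to mir-2284f (chromosome 21, 57742114 to 57742175, minus strand) had a 22 nt 3p product. For these 3, the sense locus itself was not among the predicted members. Adding the 4 loci to the family left its share with both arms at 41.2%.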

How the results depend on the processing

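Of 57 alternatives, 47 left the value on the same side of its threshold or within its spread. The number of members in a cluster fell from 4 to 0 when loci had to be on the same strand, and to 1 when overlapping pairs on opposite strands counted as 1 position, an alternative chosen after seeing the data, as were the splits of the cluster comparison by class. It was 3 to 5 at distances of 1, 5 and 50 kb, and the difference from other annotated loci lay between -49.7 and -32.7 points and passed the exact test at each of them. The difference in loci with both arms from other families was -13.2 points among homologous loci and did not pass. Over annotated and homologous loci together it was -49.8 points. Fewer loci enter the homologous comparison and its difference is also smaller, and what accounts for the lost call was not tested. The difference between mir-2284 and mir-2285 turned to -3.33 points among annotated loci. Means of precursor length were 69.7 nt for the family, 68.8 nt for mir-2284 and 70.2 nt for mir-2285, above the medians, and the medians of annotated loci alone were 68 nt for the family and 69 nt for mir-2285. The mean length of 3p products was 21.8 nt. No paired analysis was possible because the call set pools all libraries of a species, and for the same reason no library could be left out. No read numbers come with the loci of the call set and no count table was used here, so how depth bears on the products predicted was not tested.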

Other observations

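The numbering of the homologous members has gaps. The 23 mir-2284 loci are numbered up to 26, with no locus for 8, 15 and 21, and the 45 mir-2285 loci run from 2 to 47, with no locus for 1 and 23.

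A supplementary list of candidate families without known homology, matched to the call set by position and strand, held 12 bovine spans. The members bta-mir-2285-Novel38, bta-mir-2285-Novel40, bta-mir-2285-Novel41 and bta-mir-2285-Novel46, appear in it as the 4 spans of 1 candidate family under names without a family number, while the deposited set gives them mir-2285 names. They lie on chromosomes 17, 3, 4 and 10. Of these, bta-mir-2285-Novel40 has both arms and the longest loop of the family, and the others have a 3p product alone.

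Overlap of family hairpins was also found in the RefSeq table. Among 161 neighbouring pairs of RefSeq genes named MIR2284 or MIR2285, 6 overlapped, and no further pair was within 10 kb. The pairs were MIR2285O-3 with MIR2284Y-4, MIR2285O-5 with MIR2284H, MIR2285U with MIR2284Y-2, MIR2285Y with MIR2284Z-6, MIR2285O-1 with MIR2285AV and MIR2285Z with MIR2285Q. In 4 of the 6 a mir-2285 gene overlapped a mir-2284 gene. The first pair is the one found in the call set. No locus named mir-2285u or mir-2285z was predicted beside bta-mir-2284y-2 or bta-mir-2285q. On chromosome 12 a locus antisense to mir-2285o-1 was predicted, and whether it is the gene named MIR2285AV was not determined, since the builds may differ.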
